A study of Mus musculus with 11 samples.

Results

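Colonic epithelial cells make growth factors and cytokines that act on the leukocytes beneath and between them. The transcripts of 8 such genes (Csf1, Il34, Il11, Csf2, Lif, Il15, Il7 and Tslp) were examined here, chosen by symbol from the 52550 genes of the count table. All 8 had a row, and 6 of them had enough reads to be tested. The libraries came from colonic epithelium of RAG1 KO mice on the C57BL/6 background, 1 library per mouse, and the sources used here name no age for these libraries. The 6 FFD mice received a fiber-free diet and the 5 CD mice a diet with 7% cellulose as its only fiber, each for 4 weeks. All 11 mice then drank 1.5% dextran sulfate sodium (DSS), a polymer that injures the colonic epithelium, for 5 days. The comparison is therefore between diets under DSS, and mice without DSS were not analysed here. The paper reports that cellulose-fed RAG KO mice resisted DSS colitis better, by weight loss and colon length/weight ratio. Diet and the severity of the injury therefore cannot be told apart in these libraries. RAG1 KO mice lack mature T and B cells and keep innate lymphoid cells and myeloid cells, so part of the cells that these cytokines address is missing in both groups. The question behind the libraries was whether cellulose affects gene expression of the epithelium during inflammation. A number in the sample titles is 1 for every CD and 2 for every FFD mouse, and its meaning is not stated in the labels or the methods. A cage or batch that followed it cannot be told apart from the diet.

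The 8 cytokines fall into groups by the receptors they use. CSF-1 and IL-34 are ligands of 1 receptor, the tyrosine kinase CSF1R, which keeps monocytes and macrophages alive. GM-CSF, the product of Csf2, acts on granulocytes, macrophages and dendritic cells through its own alpha chain and a common beta chain. LIF and IL-11 belong to the IL-6 family and signal through gp130, the product of Il6st, joined to LIFR or IL-11RA. IL-15 and IL-7 use the common gamma chain, and innate lymphoid cells, NK cells and intraepithelial lymphocytes depend on them. TSLP, which shares the IL-7 receptor alpha chain, acts on dendritic cells, mast cells and type 2 innate lymphoid cells.

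The total count was 10374154 to 27973285 in FFD mice and 20853535 to 28588266 in CD mice, with the lowest in FFD mouse 4. Rag1, the disrupted gene, had 8 to 40 reads per mouse at 1.08 ± 0.176 CPM in FFD and 1.17 ± 0.221 CPM in CD mice (SD, n = 6 and 5), and a count over the whole gene cannot show whether the disrupted stretch was read. CPM are read counts per 1000000 of the TMM-scaled library total. The 10 markers of epithelium summed to 14370 to 19070 CPM in FFD mice, against 12560 to 14960 CPM in CD mice. Of these markers 9 rose (90%, beside 18.2% of all genes tested) and none fell. Many markers of the other cells were scarce, though not Ly6g, Areg and Kit, whose levels are given below. None of the markers had 0 reads over all mice. The 12 markers of T and B cells summed to 1.91 to 3.28 CPM in FFD and 2.28 to 3.13 CPM in CD mice. The 15 macrophage and monocyte markers summed to 32.0 to 52.7 CPM in FFD and 23.9 to 32.1 CPM in CD mice. Of the macrophage markers 3 of 14 tested rose, among them Mrc1 and C1qb, and C1qb kept its call in 10 of 19 alternatives. The other 11 did not pass, with log2 fold changes of 0.08 for C1qa, 0.10 for Cd68 and -0.42 for Adgre1, and 21.4% called higher stands beside 18.2% of all genes tested. Among neutrophil markers Ly6g and S100a8 rose, and the 10 of them summed to 67.1 to 225 CPM in FFD and 24.2 to 65.6 CPM in CD mice. Nearly all of that sum was Ly6g (153 ± 64.1 CPM in FFD and 33.5 ± 16.3 CPM in CD mice), while Csf3r did not pass (log2 fold change 0.20, adjusted p = 0.54) and 6 of the 10 had too few reads to test.

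Lack of cellulose was accompanied by opposite changes of cytokines that share a receptor chain. Il34 was 1.88-fold and Lif 1.70-fold higher in FFD mice, whereas Csf1 was 2.04-fold and Il11 1.84-fold lower. Il15 and Il7 did not pass the test, and Csf2 and Tslp had too few reads for it. Thus 2 of the 6 tested cytokines rose and 2 fell. Whether a shared receptor chain bears on these directions was not tested. Of all 15044 genes tested, 18.2% were higher and 18.6% lower in FFD mice, or 36.8% in either direction, so that calls were frequent throughout the table. Each gene was tested for diet with edgeR's quasi-likelihood test, and genes with a Benjamini-Hochberg adjusted p under 0.05, taken over all genes tested, were called changed. In 2 of the 6 cytokines, Il34 and Il11, the values of the diets did not overlap, as was the case for 18.5% of all genes tested. The libraries are of bulk cells, in which fewer cells of a type and less RNA per cell cannot be told apart.

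**Figure D1:**
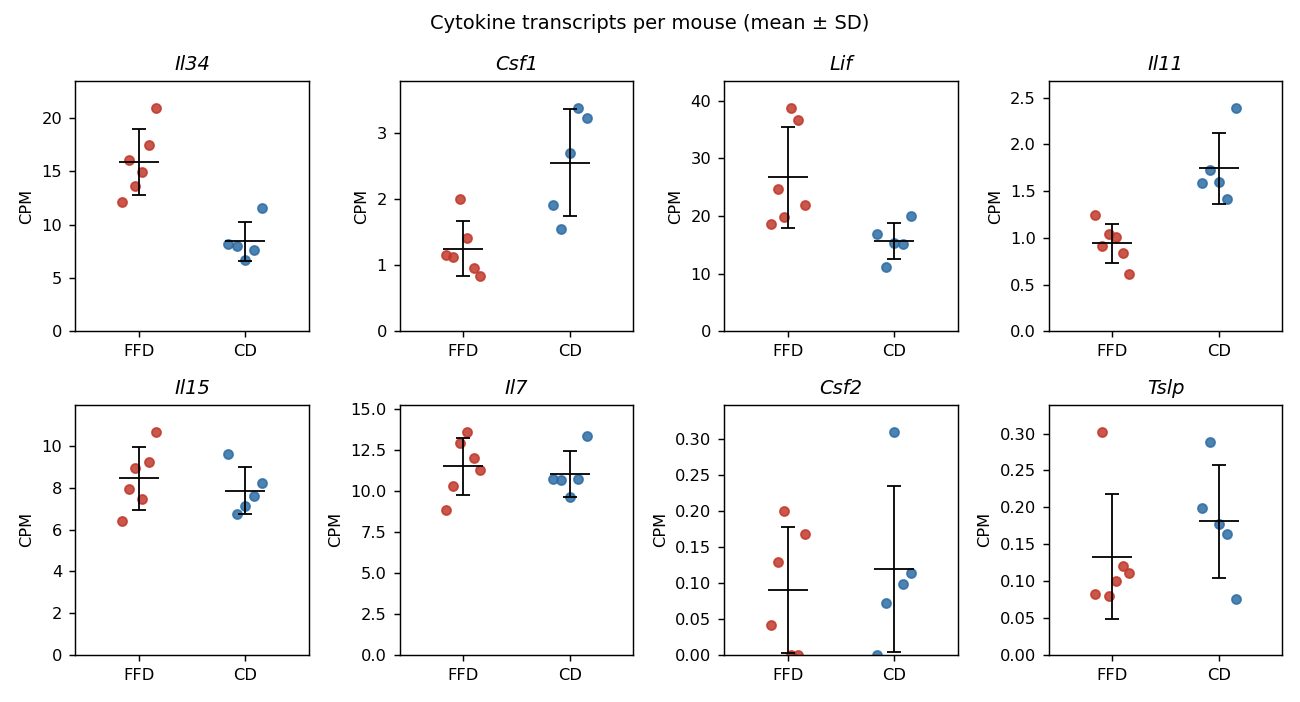
Normalized counts (CPM, linear axis from 0) of the 8 cytokines in FFD (red, n = 6) and CD (blue, n = 5) mice, 1 point per mouse, with the mean and SD in black. Each FFD mouse exceeds each CD mouse in Il34 and lies below each of them in Il11, Lif and Csf1 overlap in a few mice, and Csf2 and Tslp stay below 0.32 CPM throughout.

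The promoters of Csf1, Il11 and Lif are shown because genes that share a receptor chain changed in opposite directions. That of Il34, the other cytokine that changed, is not shown here. RefSeq promoter sequences of GRCm38.p6 were matched for 4 of the 8 genes (Csf1, Il11, Lif and Csf2). The 250 bases before the start were searched on both strands for the letters of an AP-1 site (TGANTCA), a STAT site (TTCNNNGAA), an interferon response element (GAAA, any 2 bases, GAAA) and an NF-kB site (GGG, any 2 bases, TTTCC). The letters TATAAA were searched on the gene strand only. Each printed sequence holds 1 match, marked by capitals, and no match overlaps another. Csf1 at chr3:107760470-107760719 on the minus strand, Il11 at chr7:4778142-4778391 on the minus strand and Lif at chr11:4257318-4257567 on the plus strand read 5′ to 3′ as follows.
Csf1: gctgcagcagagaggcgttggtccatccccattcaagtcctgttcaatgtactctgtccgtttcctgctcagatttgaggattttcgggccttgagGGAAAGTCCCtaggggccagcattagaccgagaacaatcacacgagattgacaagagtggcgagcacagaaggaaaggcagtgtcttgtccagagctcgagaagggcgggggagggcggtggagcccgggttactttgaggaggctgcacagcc
Il11: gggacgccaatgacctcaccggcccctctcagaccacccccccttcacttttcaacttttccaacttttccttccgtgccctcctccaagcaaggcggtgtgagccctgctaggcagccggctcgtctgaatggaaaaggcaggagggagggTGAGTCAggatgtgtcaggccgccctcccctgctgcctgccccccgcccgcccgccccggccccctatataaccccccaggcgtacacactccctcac
Lif: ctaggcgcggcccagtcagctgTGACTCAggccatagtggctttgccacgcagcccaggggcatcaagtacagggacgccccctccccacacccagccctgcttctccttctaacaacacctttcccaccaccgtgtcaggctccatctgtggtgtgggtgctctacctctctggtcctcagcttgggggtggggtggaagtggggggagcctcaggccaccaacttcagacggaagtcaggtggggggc

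The match in Csf1 is to the NF-kB letters on the reverse strand and begins 154 bases before the start, and 1.41% of 32817 promoters of this length hold such letters. AP-1 letters stand 98 bases before the start of Il11, which fell, and 228 bases before that of Lif, which rose, and 6.75% of promoters hold them. The window of Csf2 and that of a second annotated start of Il11 held none of the searched motifs. That of Csf2 lies before the RefSeq start at 54249899, whereas GENCODE M21 starts this minus-strand gene at 54249667. The bases between these starts were not searched. STAT letters were held by 7.01%, interferon response letters by 2.97% and the TATA box by 7.60% of all promoters. These matches describe letters only, and whether a factor was bound there was not measured.

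CSF-1 and IL-34, the ligands of CSF1R, moved in opposite directions. Il34, on chromosome 8 of GRCm38 from 110741829 to 110805924, was at 12.2 CPM in the lowest, 15.5 CPM in the median and 21.0 CPM in the highest of the FFD mice. In CD mice 1 to 5 it was at 8.20, 8.03, 6.69, 7.62 and 11.6 CPM. Every FFD mouse was above every CD mouse, with FFD mouse 6 the highest and CD mouse 5 the nearest of the CD mice. Il34 averaged 15.9 ± 3.11 CPM in FFD and 8.42 ± 1.86 CPM in CD mice (SD, n = 6 and 5), a log2 fold change of 0.91 ± 0.16 (SE) with an edgeR adjusted p of 0.0018. Exons of Il34 overlap those of the antisense genes Gm15894 and Gm15895, which had 5 and 180 reads over all mice, against 3084 of Il34. Gm15894 had 1 read in FFD and 4 in CD mice, and Gm15895 had 118 in FFD and 62 in CD mice. The sources used here do not say whether counting used strand.

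Csf1, on chromosome 3 from 107741048 to 107760469, was among the scarcer transcripts. Its level was 0.836 CPM in the lowest, 1.14 CPM in the median and 2.002 CPM in the highest of the FFD mice. In CD mice 1 to 5 it was at 1.91, 1.55, 2.70, 3.38 and 3.23 CPM. FFD mouse 3 lay above CD mice 1 and 2, and the other 5 FFD mice lay below all CD mice. Csf1 averaged 1.25 ± 0.417 CPM in FFD and 2.55 ± 0.804 CPM in CD mice, or 14 to 50 and 43 to 103 reads per mouse. The log2 fold change was -1.03 with a standard error of 0.27 (adjusted p = 0.0098 from edgeR), and its 95% interval ran from -1.61 to -0.45.

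Reads of Il34 exceeded those of Csf1 by 6.82 to 25.1 times in FFD mice (median 12.4) and by 2.25 to 5.19 times in CD mice (median 3.59). The ratio was formed after both changes had been seen and was not tested. Their receptor gene Csf1r was at 2.49 ± 0.526 CPM in FFD and 2.01 ± 0.440 CPM in CD mice (log2 fold change 0.32, 95% interval -0.10 to 0.73, adjusted p = 0.22). Macrophages express Csf1r, and 3 of the 14 tested macrophage markers, Csf1r among the 14, rose as given above. Its exons overlap those of Hmgxb3 on the opposite strand. IL-34 also binds syndecan-1 and the phosphatase PTPRZ1. Sdc1, which encodes syndecan-1 and is abundant in epithelium, was at 207 ± 27.5 CPM in FFD and 176 ± 18.2 CPM in CD mice (log2 fold change 0.24, adjusted p = 0.073). Ptprz1 had 46 reads over all mice and was not tested.

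Fibroblasts and endothelium are known sources of CSF-1, and fibroblasts of IL-11, so their markers were read beside these 2 genes. The 18 markers of fibroblasts, muscle, endothelium and glia summed to 14.7 to 17.7 CPM in FFD and 14.5 to 16.3 CPM in CD mice. Of these markers 14 were under 1 CPM on average and 6 were tested. The lymphatic vessel receptor Lyve1 was the 1 called higher in FFD mice (16.7%, beside 18.2% of all genes tested). Markers too scarce to test went either way. The endothelial genes Kdr and Cdh5 had 12 and 10 reads in FFD mice, against 23 and 23 in CD mice. Col3a1, a collagen gene, had 11 in FFD and 28 in CD mice. More reads in FFD than in CD mice were counted for Col1a1 (13 and 6), Col1a2 (18 and 10), Dcn (37 and 23) and Des (14 and 6). The part of such cells in the lower Csf1 and Il11 was not tested.

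**Figure D2:**
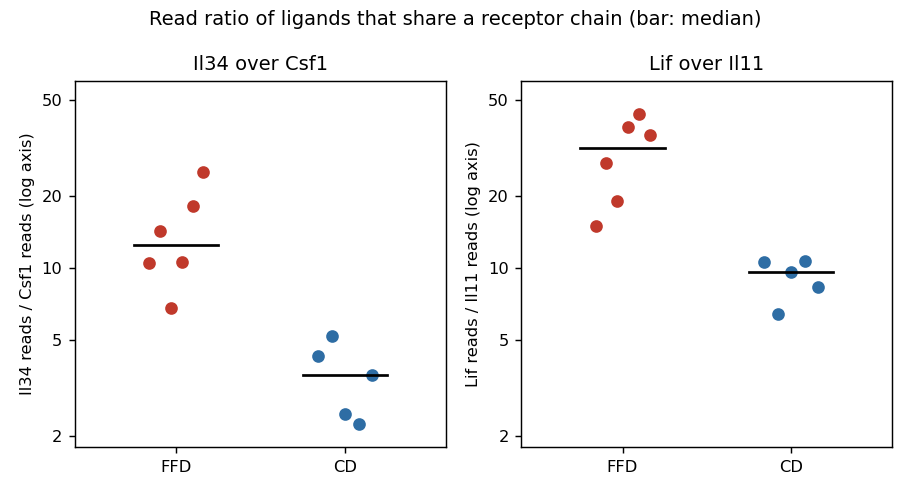
Ratio of the reads of Il34 to those of Csf1, and of Lif to those of Il11, in each FFD (red, n = 6) and CD (blue, n = 5) mouse on a log axis, with the median as a bar. Each ratio sets a gene called higher in FFD over a gene called lower, so higher ratios in FFD follow from that choice. Medians in FFD and CD were 12.4 and 3.59 for Il34 over Csf1 and 31.4 and 9.61 for Lif over Il11. The diets do not overlap in either ratio, and neither ratio was tested.

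The same pattern was seen for LIF and IL-11, which signal through gp130. Lif, on chromosome 11 from 4257557 to 4272514, was at 18.6 CPM in the lowest, 23.3 CPM in the median and 38.8 CPM in the highest of the FFD mice. CD mice 1 to 5 had 16.8, 11.1, 15.3, 15.1 and 19.9 CPM. FFD mice 4 and 5 stood highest, and FFD mice 1 and 3 lay within the range of CD mice, whose highest was CD mouse 5. Lif averaged 26.7 ± 8.78 CPM in FFD and 15.7 ± 3.20 CPM in CD mice (edgeR adjusted p = 0.013 at a log2 fold change of 0.76 ± 0.21, SE).

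Il11, on chromosome 7 from 4772373 to 4782859, was at 0.613 CPM in the lowest, 0.958 CPM in the median and 1.24 CPM in the highest of the FFD mice. CD mice 1 to 5 had 1.59, 1.73, 1.596, 1.41 and 2.39 CPM. All FFD mice lay below all CD mice. The averages were 0.942 ± 0.211 CPM in FFD and 1.74 ± 0.379 CPM in CD mice, which rest on 10 to 30 and 36 to 63 reads per mouse. The log2 fold change of Il11 was -0.88 with a standard error of 0.21 (adjusted p = 0.0073 from edgeR). With all libraries thinned to the lowest total it was -0.59 and no longer passed (adjusted p = 0.14), so that at this depth the call of Il11 is less firm than the others. Reads of Lif exceeded those of Il11 by 15.0 to 43.6 times in FFD mice and by 6.42 to 10.7 times in CD mice. This ratio too was formed after both changes had been seen and was not tested.

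None of the receptor chains of LIF and IL-11 passed the test. The shared chain gene Il6st was at 48.7 ± 4.67 CPM in FFD and 43.0 ± 3.89 CPM in CD mice (log2 fold change 0.18, adjusted p = 0.10). Lifr was at 1.71 ± 0.816 CPM in FFD and 2.68 ± 0.772 CPM in CD mice (log2 fold change -0.66, 95% interval -1.34 to 0.02, adjusted p = 0.12). Il11ra1, whose exons overlap Ccl27a on the opposite strand, was at 10.2 ± 2.42 CPM in FFD and 10.1 ± 1.26 CPM in CD mice, with an interval of the log2 fold change from -0.35 to 0.34. Downstream of gp130, the transcription factor gene Stat3 rose by 0.34 on the log2 scale (222 ± 22.6 CPM in FFD and 175 ± 14.2 CPM in CD mice, adjusted p = 0.0064). The feedback inhibitor gene Socs3 rose by 0.64 (202 ± 75.3 CPM in FFD and 129.5 ± 20.02 CPM in CD mice, adjusted p = 0.041) but kept its call in 9 of 20 alternatives, and lost it without any of CD mice 1 to 4 and FFD mice 2, 5 and 6 (adjusted p of 0.053 to 0.090). Stat3 and Socs3 were singled out after their values had been seen. IL-22 and other cytokines also act through both genes, and exons of Stat3 overlap Stat5a on the opposite strand.

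**Figure D3:**
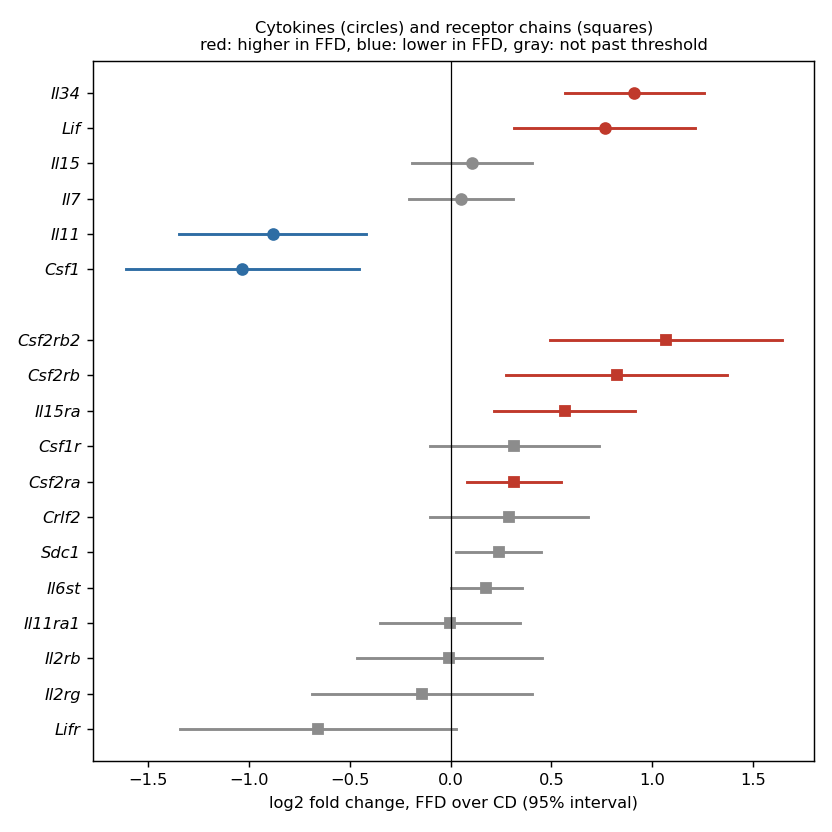
Log2 fold change of FFD over CD with its 95% interval for the 6 tested cytokines (circles) and the 12 tested receptor chains (squares), in red where higher in FFD, blue where lower and gray where the test was not passed. Il34 and Lif lie to the right of 0 and Il11 and Csf1 to the left, while all 4 receptor chains that changed lie to the right.

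Il15 and Il7, which sustain innate lymphoid cells, did not pass the test, and their values overlapped widely between the diets. Il15, on chromosome 8 from 82331632 to 82403222, was at 6.41 CPM in the lowest, 8.46 CPM in the median and 10.7 CPM in the highest of the FFD mice. CD mice 1 to 5 had 9.63, 6.77, 7.14, 7.62 and 8.24 CPM, within the range of the FFD mice. Il15 averaged 8.46 ± 1.51 CPM in FFD and 7.88 ± 1.13 CPM in CD mice. Its log2 fold change was 0.10 with a 95% interval from -0.19 to 0.40 (adjusted p = 0.58), and it turned to -0.051 without TMM scaling.

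Il7, on chromosome 3 from 7569994 to 7613760, was at 8.84 CPM in the lowest, 11.6 CPM in the median and 13.6 CPM in the highest of the FFD mice. CD mice 1 to 5 had 10.7, 10.7, 9.62, 10.7 and 13.3 CPM, again within the range of the FFD mice. Il7 averaged 11.5 ± 1.74 CPM in FFD and 11.01 ± 1.38 CPM in CD mice. The log2 fold change was 0.05 with a 95% interval from -0.20 to 0.31 (adjusted p = 0.76), and it turned to -0.094 without TMM scaling. Changes of the size seen in Il34 or Csf1 lie outside the intervals of Il15 and Il7. The antisense gene Gm16685, whose exons overlap those of Il7, had 736 reads in FFD and 422 in CD mice. Together these were 1158 reads, against 2870 of Il7. Part of the Il7 count, and with it the comparison of the diets, is uncertain if strand was not used.

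The gene of the receptor chain that presents IL-15 rose, and whether it changed more than Il15 was not tested. Il15ra, which holds IL-15 at the cell surface for neighboring lymphocytes, was at 23.1 ± 5.83 CPM in FFD and 15.6 ± 2.42 CPM in CD mice (edgeR adjusted p = 0.016 at a log2 fold change of 0.57 ± 0.16, SE). Single mice ranged from 17.1 to 31.8 CPM in FFD and from 13.0 to 19.4 CPM in CD mice, so the diets overlapped. The other chains of these receptors did not pass. Il2rb was at 2.34 ± 0.547 CPM in FFD and 2.36 ± 0.583 CPM in CD mice (log2 fold change -0.01, 95% interval -0.47 to 0.45). Il2rg, the common gamma chain gene, was at 0.970 ± 0.381 CPM in FFD and 1.10 ± 0.145 CPM in CD mice (log2 fold change -0.14, 95% interval -0.69 to 0.41). Il7r, the alpha chain gene of the receptors for IL-7 and TSLP, had 69 reads over all mice and was not tested. Of 11 tested markers of innate lymphoid and NK cells 2 rose, among them Areg, and none fell. This 18.2% called higher stands beside 18.2% of all genes tested. The 17 markers summed to 191.2 to 379.5 CPM in FFD and 131 to 212 CPM in CD mice, most of which was Areg (211 ± 76.5 CPM in FFD and 95.9 ± 26.2 CPM in CD mice), an EGF family ligand that epithelium also makes.

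Csf2 and Tslp were near the limit of detection. Csf2 had 12 reads in FFD and 15 in CD mice and was at 0 in FFD mice 4 and 5 and in CD mouse 1, where a count of 0 allows up to 3 reads, or 0.302, 0.120 and 0.119 CPM. Csf2 averaged 0.0898 ± 0.0875 CPM in FFD and 0.119 ± 0.116 CPM in CD mice, a difference of -0.029 CPM (exact permutation test over 462 splits, 2-sided p = 0.66). For Tslp, 17 reads were counted in FFD and 24 in CD mice, with at least 1 read in every mouse. Tslp averaged 0.133 ± 0.0846 CPM in FFD and 0.181 ± 0.0760 CPM in CD mice, a difference of -0.048 CPM (exact permutation test, 2-sided p = 0.35). FFD mouse 2 had the highest Tslp value of all mice, and without it the difference was -0.0819 CPM (exact permutation test, p = 0.048). With all mice, no difference of either gene was detected at this depth, and the test over 462 splits cannot give a p below 0.00216.

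Although Csf2 was barely detected, 3 of the 4 receptor chain genes that rose encode chains of its receptor or a copy of one. Csf2rb2, the mouse beta chain that serves IL-3 only, was at 1.08 ± 0.361 CPM in FFD and 0.512 ± 0.0935 CPM in CD mice, with no overlap between the diets (edgeR adjusted p = 0.0080 at a log2 fold change of 1.07 ± 0.27, SE). Csf2rb, the beta chain common to GM-CSF, IL-3 and IL-5, was at 3.15 ± 1.13 CPM in FFD and 1.77 ± 0.305 CPM in CD mice (log2 fold change 0.82, adjusted p = 0.023), and lost its call in thinned libraries (adjusted p = 0.14) and without CD mouse 3 (adjusted p = 0.051) or FFD mouse 2 (adjusted p = 0.054). These beta chains are near-identical copies, so reads may have been split between them. Csf2ra, the alpha chain gene, was at 12.6 ± 1.45 CPM in FFD and 10.1 ± 1.25 CPM in CD mice (log2 fold change 0.31, adjusted p = 0.035), a call kept in 9 of 20 alternatives and lost without any of CD mice 2 to 4 and FFD mice 2, 4, 5 and 6 (adjusted p of 0.051 to 0.086). Myeloid cells express these chains. Of the tested myeloid markers, 3 of 14 of macrophages and 2 of 4 of neutrophils rose (21.4% and 50%, beside 18.2% of all genes tested). The higher neutrophil sum was nearly all Ly6g. The part of myeloid cells in these results was not tested. Crlf2, the TSLP receptor chain gene, was at 5.94 ± 1.62 CPM in FFD and 4.87 ± 0.687 CPM in CD mice (log2 fold change 0.29, adjusted p = 0.22). Of 12 tested receptor chains 4 rose, none fell and 8 did not pass. The 33.3% called higher stands beside 18.2% of all genes tested, of which 18.6% were lower. Without CD mouse 3 or FFD mouse 2 the number of receptor chains that rose was 2.

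When levels were divided by the length of the annotated exons, the order of the cytokines was the same in both diets. Il34 was the most abundant, followed by Lif, Il15, Il7, Il11, Csf1, Csf2 and Tslp. Per kb of exon, Il34 was at 8.10 ± 1.58 CPM in FFD and 4.30 ± 0.949 CPM in CD mice. Lif was at 6.15 ± 2.02 CPM per kb in FFD and 3.60 ± 0.735 CPM per kb in CD mice, and Il15 at 3.74 ± 0.668 CPM per kb in FFD and 3.48 ± 0.498 CPM per kb in CD mice. The ranges of Il34 and Lif overlapped over the mice of either diet, and so did those of Lif and Il15. Il7 (2.03 ± 0.307 CPM per kb in FFD and 1.94 ± 0.244 CPM per kb in CD mice) lay below Il15 and above Il11 with no overlap. At the lower end, Il11 was at 0.453 ± 0.101 CPM per kb in FFD and 0.838 ± 0.182 CPM per kb in CD mice, and Csf1 at 0.236 ± 0.0790 CPM per kb in FFD and 0.484 ± 0.152 CPM per kb in CD mice. Il11 and Csf1 overlapped in FFD but not in CD mice, and Csf1, Csf2 and Tslp overlapped with their neighbors in this order.

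Other cytokines that act on leukocytes, from these and other families, were mostly too scarce to test. Of 26 such genes, 17 were not tested, with 0 to 69 reads over all mice, among them Il6, Il3, Il23a and Csf3. Of the 9 tested, 1 rose, 1 fell and 7 did not pass (11.1% each way, beside 18.2% higher and 18.6% lower of all genes tested). The alarmin gene Il33, which activates type 2 innate lymphoid cells and mast cells, was at 8.63 ± 3.18 CPM in FFD and 4.11 ± 1.26 CPM in CD mice (edgeR adjusted p = 0.0091 at a log2 fold change of 1.07 ± 0.27, SE). Kitl, which encodes stem cell factor, the growth factor of mast cells, fell to 107 ± 12.0 CPM in FFD mice, against 130 ± 11.1 CPM in CD mice (edgeR adjusted p = 0.018 at a log2 fold change of -0.29 ± 0.08, SE), and lost its call without CD mouse 1 (adjusted p = 0.051) or CD mouse 2 (adjusted p = 0.062).

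Genes that relay or induce these cytokines rose more often than they fell. Of 26 tested genes of JAK kinases, STAT factors, their adaptors and inhibitors, 8 rose and 1 fell. These shares, 30.8% higher and 3.85% lower, stand beside 18.2% and 18.6% of all genes tested. The kinase genes Jak2 (log2 fold change 0.45) and Jak1 (0.36), the phosphatase gene Ptpn6 (0.40) and the adaptor gene Grb2 (0.28) had the smallest p-values, with adjusted p of 0.0015 to 0.0045. Jak2 was at 88.1 ± 9.29 CPM in FFD and 64.3 ± 3.38 CPM in CD mice. Socs2, an inhibitor of cytokine receptors, fell by 0.43 on the log2 scale (adjusted p = 0.048) and kept its call in 10 of 20 alternatives, not without any of CD mice 1 to 4 and FFD mice 1, 2, 4 and 5 (adjusted p of 0.056 to 0.15). Without TMM scaling the median log2 fold change over all genes shifted by -0.15, and 5 of these genes rose and 3 fell, while over all genes 1636 rose and 4863 fell, against 2740 and 2792 with it.

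Interferon regulators, under which Il15 and Il7 are known to be induced, showed the highest share of higher genes among the lists of cytokines, receptors and regulators. Of 17 tested genes 9 rose (52.9%, beside 18.2% of all genes tested) and none fell. The median log2 fold change of the 17 was 0.40, against -0.03 over all genes. Irf7, a regulator of type I interferon genes, was at 156 ± 71.3 CPM in FFD and 51.6 ± 12.9 CPM in CD mice (log2 fold change 1.59, adjusted p = 0.0015), and its exons overlap Phrf1 on the opposite strand. The receptor chain genes Ifngr1 (0.72), Ifnlr1 (0.82) and Il10rb (0.44) rose too. Irf1, which acts on the IL-15 promoter, was at 279 ± 59.5 CPM in FFD and 251 ± 60.8 CPM in CD mice and did not pass (log2 fold change 0.15, adjusted p = 0.50). Under the NF-kB and AP-1 families, Lif, Csf1, Csf2, Il11 and Tslp are known to be induced. Of 22 tested genes of these families and their inhibitors, 8 rose (36.4%, beside 18.2% of all genes tested) and none fell. Among them were the inhibitor gene Tnfaip3 (0.86), Fosl2 (0.50), the NF-kB subunit gene Nfkb2 (0.35) and the kinase gene Chuk (0.24). Without TMM scaling 4 of them rose, and Nfkb2, Chuk and, on the JAK-STAT list, Grb2 no longer passed.

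**Figure D4:**
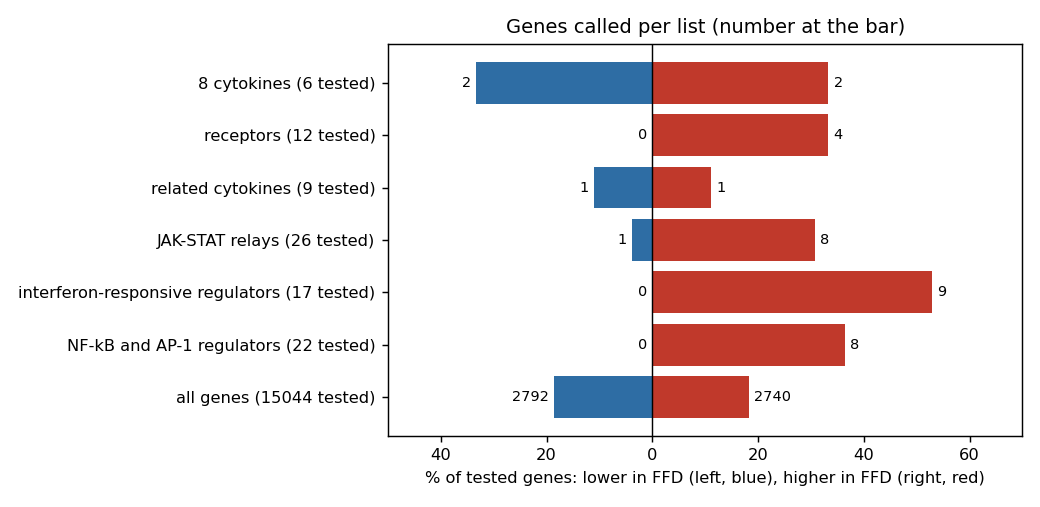
Share of the tested genes (horizontal axis, %) that were lower in FFD (blue, to the left) or higher in FFD (red, to the right) on each list, with the number of genes at the bar. The 8 cytokines are split evenly with 2 genes each way, while the receptors and both lists of inducing regulators hold none that were lower.

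For each tested cytokine, the genes whose levels varied most like it from mouse to mouse within the diets were sought. After subtraction of the mean of its diet, the log2 level of Il34 was most like that of Nipal2 (Pearson r = 0.96 over 11 mice). For Csf1 the most similar genes were Uqcc1 (0.91) and Ecsit (0.90), for Il11 Nomo1 (0.92) and Colgalt1 (0.90), and for Lif Piga (0.95) and Tnnt2 (0.94). For Il15 they were Krit1 (0.94) and Ikbkg (0.93), and for Il7 Rsc1a1 (0.90) and Ddx55 (0.88). These are among the highest of 11978 genes compared for each cytokine over the same libraries, and they describe likeness only. How high such values rise by chance was not tested. Among the cytokines themselves, Il34 and Il15 were the most alike (0.65), while Csf1 and Il34 (-0.23) and Lif and Il11 (0.05) showed little likeness within a diet.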

How the data were processed

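RNA of colonic epithelial cells, isolated with DTT and EDTA and a Percoll gradient, was sequenced by the authors as single reads of 59 bp, 1 library per mouse. Reads were mapped to GRCm38 with the Qiagen CLC Workbench, and the count of reads in each gene, not normalized, is what the authors deposited. Per the submitters' processing notes, R 3.5.1, DESeq2 1.22.2 and FastQC were used as well. The sources used here name no annotation release and do not say how strand or multiply mapped reads were handled.

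Low genes were removed in R 4.3.3 by the filterByExpr function (minimum count 10, minimum total 15) of edgeR 4.0.16. After TMM scaling, diet was the only term of its quasi-likelihood test, with p-values adjusted over all 15044 genes tested. Standard errors were taken from the quasi-likelihood F statistic, and 95% intervals from its degrees of freedom. All 6 tested cytokines exceeded the filter in every mouse, and Csf2 and Tslp in none. No library was a repeat of another (lowest chi-square per degree of freedom within a diet, 11.1). Positions, overlaps and exon lengths are from GENCODE M21, which held 91.4% of the gene names and all listed genes.

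The cytokines, the lists and the tests were chosen with earlier results of these data known. Named are all 8 cytokines and their receptor chains, the 4 smallest p-values per direction and list, and for each tested cytokine the 2 most similar genes of at least 1 CPM on average, predicted genes left out. Some genes that this rule or the marker lists would name are not reported here. Stat3, Socs3, Irf1 and the marker genes were named after their values were seen. Alternatives were DESeq2 1.42.0 and its size factors, no TMM, other filters, limma 3.58.1 voom, a robust fit, a replicate block, thinned libraries and each mouse left out. On simulated counts for FFD against CD with 15044 genes, edgeR recovered 23, 41, 47 and 46 of 50 genes each at log2 folds of 0.5, 1, 1.5 and 2, with 7 false calls. The simulation changed far fewer genes than the 36.8% called in these data, so its rates may not hold here. Floors of 3 reads cover counting error only.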

Additional observations from a re-analysis of the deposited data

How the results depend on the processing

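Il34, Lif and Csf1 kept their direction and their call in all 20 alternatives. Their log2 fold changes were 0.75 to 1.07, 0.60 to 0.88 and -1.23 to -0.90. Il11 was -1.02 to -0.59 and missed the threshold with thinned libraries (adjusted p = 0.14) and with a replicate block (-0.79, adjusted p = 0.055), so that 1 cytokine was lower under each of these settings. Same-numbered mice did not deviate together (correlations of -0.26 to 0.29 over the 1000 most variable genes for 5 pairs), so the numbers were not taken as pairs. With the block 1829 of all genes were lower. Without TMM the log2 fold changes of Il15 (-0.051), Il7 (-0.094), Krit1 (-0.030), Ikbkg (-0.043) and Irf1 (-0.0098) changed sign, 1636 genes were higher and 4863 lower, 5 JAK-STAT genes were higher and 3 lower, and 4 NF-kB and AP-1 genes were higher. Il11ra1 was at 0.016 with DESeq2 size factors, 0.000451 with no filter, 0.0097 with the strict filter and 0.016 with DESeq2, and Il2rb at 0.012 with those size factors, 0.00500 with the strict filter and 0.012 with DESeq2. The JAK-STAT genes that were lower numbered 0 with DESeq2 size factors and with the robust fit, and 2 receptor chains were higher with thinned libraries. With 1 mouse left out, Il11ra1 was at -0.111 to 0.102 and Il2rb at -0.118 to 0.104, 2 cytokines were higher and 2 lower each time, 2 to 5 receptor chains were higher, 1 to 2 related cytokines higher and 0 to 1 lower, 6 to 10 JAK-STAT genes higher and 0 to 1 lower, 9 to 11 interferon regulators higher and 7 to 9 NF-kB and AP-1 genes higher. Csf2 differed by -0.0589 to 0.019 CPM, turning positive without CD mouse 3, and Tslp by -0.0819 to -0.0211 CPM. Over all 20 alternatives, 6 to 11 interferon regulators were higher. No called gene named in the text reversed. Depth limits Csf2, Tslp, Il11 and Csf1 most, and FFD mouse 4 had the fewest reads.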

Other observations

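Genes of mast cells were read beside Kitl and Il33, whose products act on them. Cma1, a mast cell protease gene, was at 0.680 ± 0.503 CPM in FFD and 4.05 ± 1.71 CPM in CD mice (SD, n = 6 and 5), with no overlap between the diets (edgeR adjusted p = 0.0018 at a log2 fold change of -2.60 ± 0.45, SE). Kit, the receptor gene of stem cell factor, was at 22.8 ± 5.21 CPM in FFD and 32.4 ± 10.05 CPM in CD mice (log2 fold change -0.51, adjusted p = 0.061). Of 7 tested markers of mast cells and eosinophils, Cma1 was lower in FFD mice (14.3%, beside 18.6% of all genes tested) and 6 did not pass. Among those 6, the log2 fold change was 0.44 for Hdc and -0.48 for Cpa3. The 13 markers summed to 22.6 to 41.0 CPM in FFD and 33.3 to 59.2 CPM in CD mice, and Kit, which some epithelial cells also express, made up most of the sum.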
